A study of Homo sapiens with 4 samples.

Results

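Collagens, laminins and the other proteins of basement membranes were followed at the RNA level in H1299 cells, a line established from a human non-small-cell carcinoma of the lung. The set was defined by name alone: every protein-coding gene whose symbol is COL, a number, A and a number, or LAMA, LAMB or LAMC with a digit, plus AGRN, HSPG2, NID1, NID2, FN1, SPARC and TGFBI. It held 63 of the 61852 genes in the deposited tables, of which 44 were collagens, 12 were laminin chains and 7 were the other named genes. All 4 libraries came from cells labelled p53-/-, with no treatment stated. Wild-type p53 was expressed in the cells of 2 libraries (p53WT), and CASM34 in those of the other 2. CASM34 is a p53 variant from a study of synonymous mutations found in cancers, which change codons without changing the encoded amino acid. The labels do not say by which vector or promoter p53 was expressed, whether a clone was used, or whether the libraries of a group came from separate cultures, so the p-values reflect no more than the differences among these 4 libraries, possibly technical ones. Cells without any p53 were not analysed here, and p53WT is the reference throughout.

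Collagens are built from 3 chains wound into a triple helix, in which glycine recurs at a regular step. Laminins are cross-shaped trimers of an alpha, a beta and a gamma chain that assemble into a sheet beneath epithelia. Basement membranes form where that sheet is joined to a network of type IV collagen by nidogens and the heparan sulfate proteoglycans perlecan (HSPG2) and agrin (AGRN). Carcinoma cells can make part of this matrix themselves, while the fibrillar collagens of tumours come largely from fibroblasts.

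The expected counts totalled from 18086983 to 26906095 per library, and the 63 genes took 0.164% to 0.195% of them. Of 6 marker genes for this line KRT18 and VIM lay at no less than 1091 and 3225 TPM (a level scaled by transcript length and library total) in each library, but the epithelial genes EPCAM and CDH1 lay at no more than 0.30 and 0.23 TPM. Of 7 fibroblast markers LUM, THY1 and POSTN had 0 counts in all 4 libraries, and the summed level of the list was 0.63 to 5.48 TPM in p53WT and 0.58 to 3.24 TPM in CASM34. Of 5 endothelial markers none exceeded 0.16 TPM. Of 5 leukocyte markers PTPRC and CD3E had 0 counts, and the list summed to 1.52 to 1.72 TPM in p53WT and 2.20 to 4.89 TPM in CASM34, most of it from ITGAM. Libraries also differed in how their levels depended on the G and C content (GC) of transcripts. Per 10 percentage points of GC, log2 levels shifted by -0.0574 and -0.0567 in the p53WT libraries and by 0.0732 and 0.0409 in the CASM34 libraries, so GC content moves with the groups.

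Of the 63 genes 38 were abundant enough to test, 8 rose in CASM34 and 0 fell. The 8 were the proteoglycan genes AGRN and HSPG2, the laminin chain genes LAMA5, LAMB2 and LAMC3, and the collagen genes COL18A1, COL6A1 and COL6A2. Their rises were between 1.18-fold and 1.34-fold. Among all 15965 tested genes, 1.61% rose and 0.345% fell, so that 1.95% changed. All 8 had transcripts rich in G and C, from 59.9% to 66.8%, against 46.4% to 64.5% with a median of 51.4% for the 30 that did not pass. With an offset that removes the trend of each library on GC content and length, none of the 38 passed (24 genes rose in the whole table, 0.153%), and the 8 lay between -0.02 and 0.13 on the log2 scale. An unadjusted p under 0.05 was reached by 13 of the 38 without this offset and by 5 with it. Over all tested genes it was reached by 2734 of 15965 without the offset and by 1969 of 15695 with it. How much of the rises belongs to GC content rather than to CASM34 cannot be told apart in these libraries.

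Coding sequences are shown for chains of type VI and type XVIII collagen, to let their G and C content be read directly. Each line below gives the first 90 bases of the longest stretch in which a GGN codon opens each set of 3 codons, read 5′ to 3′ from the transcript sequences of GENCODE 29 (GRCh38). Capitals mark the GGN codons, which the genetic code assigns to glycine. The sequences to print were chosen after the values were seen. The windows are spliced and span introns in the genome. COL6A2 lies at chr21:46114038-46115925 (plus strand), COL6A3 at chr2:237357338-237357852 (minus strand) and COL18A1 at chr21:45480796-45481989 (plus strand).
COL6A2: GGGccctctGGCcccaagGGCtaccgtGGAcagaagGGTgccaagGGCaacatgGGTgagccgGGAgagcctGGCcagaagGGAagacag
COL6A3: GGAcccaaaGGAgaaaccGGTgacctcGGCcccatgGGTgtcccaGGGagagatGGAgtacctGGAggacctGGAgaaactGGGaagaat
COL18A1: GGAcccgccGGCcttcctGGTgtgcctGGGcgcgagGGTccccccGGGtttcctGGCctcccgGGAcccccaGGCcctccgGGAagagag
These windows hold 66.7%, 58.9% and 76.7% G or C, against 65.6%, 54.4% and 68.7% over the whole coding sequences. The uninterrupted stretch ran over 87 such triplets in COL6A2, 45 in COL6A3 and 30 in COL18A1. Codon choice separated the type VI chains further: G or C stood at the third position of 79.0% of codons in COL6A1 and 80.9% in COL6A2, but 60.4% in COL6A3, the chain that did not pass. High GC content was not limited to the collagens that rose. Over the whole coding sequence it was 65.0% in COL6A1, 65.6% in COL6A2 and 68.7% in COL18A1. Among collagens that did not pass it was 71.6% in COL9A3, 67.5% in COL26A1, 65.1% in COL1A1 and 65.0% in COL7A1. It was 64.7% in each of COL11A2, COL27A1 and COL13A1, 64.4% in COL5A1 and 63.7% in COL16A1. Of these collagens that did not pass, COL9A3, COL27A1 and COL13A1 had a mean above 10 CPM.

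Outside the collagens 4 genes serve as examples. Their windows are the first 90 coding bases in frame whose GC content, in all and at the third position, comes nearest to those of the whole coding sequence, with capitals for G or C at the third position of a codon. AGRN (chr1:1041621-1041963, plus strand, spliced) and LAMA5 (chr20:62362445-62362534, minus strand) rose, while LAMC1 (chr1:183103522-183103611, plus strand) and FN1 (chr2:215434790-215435709, minus strand, spliced) did not pass.
AGRN: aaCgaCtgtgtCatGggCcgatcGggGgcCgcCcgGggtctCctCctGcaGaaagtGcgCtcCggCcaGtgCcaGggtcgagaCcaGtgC
LAMA5: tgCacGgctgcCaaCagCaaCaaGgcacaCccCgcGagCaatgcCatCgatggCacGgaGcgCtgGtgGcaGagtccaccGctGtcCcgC
LAMC1: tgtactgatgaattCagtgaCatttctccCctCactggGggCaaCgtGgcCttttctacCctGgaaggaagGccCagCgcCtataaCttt
FN1: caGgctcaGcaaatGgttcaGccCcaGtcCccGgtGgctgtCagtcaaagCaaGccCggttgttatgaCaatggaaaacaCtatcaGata
G or C filled the third position of 24 of 30 codons in both AGRN and LAMA5 and of 16 of 30 in both LAMC1 and FN1. Over whole coding sequences the share was 62.1% to 81.6% in the 8 genes that rose, with a median of 78.5%. It was 28.8% to 76.6% in the 30 that did not pass, with a median of 54.7%. These ranges overlap, as genes that did not pass lay above LAMB2 (62.1%), which rose. They were SPARC (76.6%), COL26A1 (70.5%), LAMB3 (70.5%), TGFBI (66.8%), NID1 (66.1%), COL9A3 (63.3%) and COL27A1 (62.3%).

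**Figure D1:**
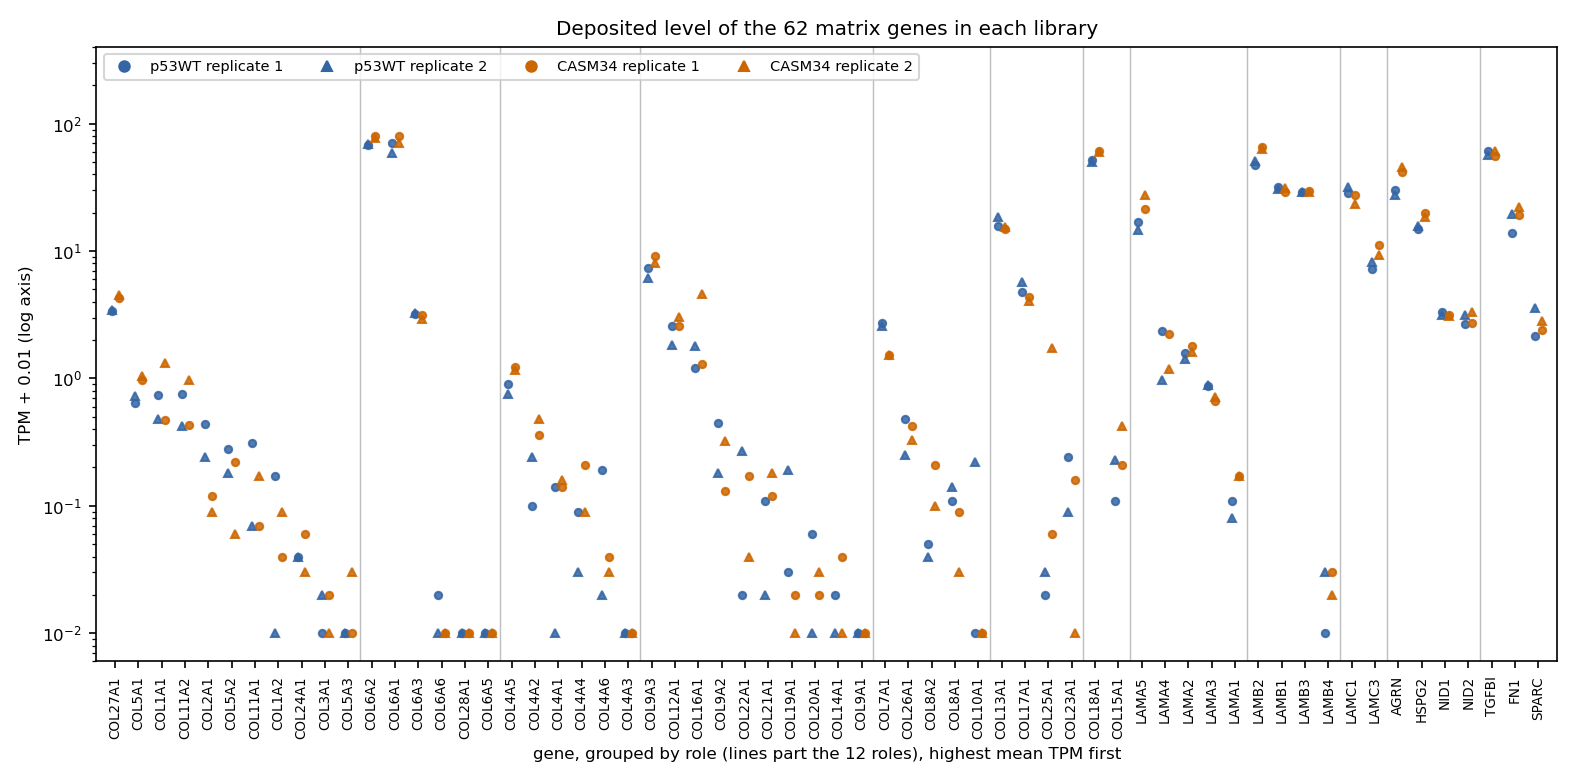
Deposited TPM plus 0.01 (log axis) of 62 of the 63 genes in each library, blue for p53WT and orange for CASM34, circles for replicate 1 and triangles for replicate 2, grouped by role. The highest levels belong to COL6A2, COL6A1, TGFBI, LAMB2 and COL18A1, while most fibrillar and network-forming collagens lie near or below 1 TPM.

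H1299 expressed a restricted part of this gene set. By mean TPM over the 4 libraries, 14 of the 63 genes lay at 10 or above and 35 lay under 1. COL6A2 (73.8), COL6A1 (69.8), TGFBI (58.7), LAMB2 (56.7) and COL18A1 (55.6) led, followed by AGRN (36.3), LAMB1 (30.7), LAMB3 (29.1) and LAMC1 (27.9). The ranges over libraries of COL6A2 (67.6 to 80.7 TPM) and COL6A1 (59.1 to 79.4 TPM) overlapped, as did those of TGFBI, LAMB2 and COL18A1. COL28A1, COL4A3, COL6A5 and COL9A1 had 0 counts in every library. A count of 0 allows up to 3 counts, equal to 0.112 to 0.164 CPM (counts scaled to a common library total, not by length) in the libraries, which covers counting error only. The 25 genes too low to test, 24 collagens and LAMB4, had at most 14 counts in any library. In bulk RNA, fewer expressing cells and less RNA per cell cannot be told apart.

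The plot of levels shows the same restriction by role. The summed level of the 63 genes was 541 and 534 TPM in the p53WT libraries and 613 and 615 TPM in the CASM34 libraries. Collagens made up 238 and 225 TPM in p53WT and 268 and 260 TPM in CASM34, and laminins 176 and 179 TPM in p53WT and no less than 198 TPM in either CASM34 library. Both CASM34 libraries were above both p53WT libraries in each of the 3 sums, to which the genes with the highest levels contribute most.

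Agrin and perlecan are large proteoglycans that bind laminin and carry heparan sulfate chains. AGRN (ENSG00000188157.15, chromosome 1, 1020123 to 1056118, plus strand) lay at 164 and 160 CPM in p53WT and at 220 and 214 CPM in CASM34, so the groups did not overlap. The group means were 162 ± 3.06 CPM and 217 ± 4.35 CPM (SD, n = 2 in each group). The log2 fold change was 0.42 (± 0.05 SE, 95% interval 0.32 to 0.52, adjusted p = 0.00170 by edgeR), and no other member that rose had a larger one. In TPM the order was the same, with 30.4 and 27.5 against 41.6 and 45.9. With the GC and length offset AGRN lay at 0.13 (edgeR adjusted p = 0.197). HSPG2 (ENSG00000142798.20, chromosome 1, 21822245 to 21937297, minus strand) lay at 124 and 111 CPM in p53WT and at 140 and 143 CPM in CASM34. Its log2 fold change was 0.27 (± 0.05 SE, adjusted p = 0.0249 by edgeR), and 0.03 with the offset. Its counts were fractional in all 4 libraries, so some of its reads were shared with other gene models.

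The nidogens, which bridge the laminin and collagen IV sheets, did not pass. NID1 lay at 15.1 and 14.5 CPM in p53WT and at 14.7 and 14.1 CPM in CASM34, a log2 fold change of -0.03 (95% interval -0.25 to 0.18). NID2 lay at 9.21 and 8.83 CPM in p53WT and at 7.94 and 9.43 CPM in CASM34, a log2 fold change of -0.06 (95% interval -0.35 to 0.23), with fractional counts in 4 libraries. Both genes had overlapping groups. RTRAF, a gene at up to 99.3 CPM, overlaps NID2 on the other strand.

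Of the 12 laminin chain genes 11 were tested, 3 rose and 8 did not pass. Among the alpha chains, which carry the domains that bind cell surface receptors, LAMA5 (ENSG00000130702.15, chromosome 20, 62307955 to 62367312, minus strand) had the highest level. It lay at 72.4 and 70.7 CPM in p53WT and at 95.4 and 86.4 CPM in CASM34, with groups that did not overlap. The log2 fold change was 0.35 (± 0.06 SE, 95% interval 0.23 to 0.47, adjusted p = 0.00921 by edgeR), and 0.08 with the GC and length offset. ADRM1, a proteasome receptor gene at up to 416 CPM, overlaps LAMA5 on the other strand, and no source used here gives the strand setting of the counts. Counts of LAMA5 were fractional in all 4 libraries, so some of its reads were shared with other gene models. The other alpha chains were far lower, between 0.12 TPM for LAMA1 and 1.68 TPM for LAMA4 on average. LAMA4 and LAMA2, chains of vessel and muscle basement membranes, had log2 fold changes of 0.23 each, with 95% intervals from -0.39 to 0.85 and from -0.13 to 0.60. LAMA3, the partner of LAMB3, had 0.41 (adjusted p = 0.303 by edgeR), and LAMA1, an embryonic chain, had 0.20 from 11 to 15 counts per library.

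Among the beta chains LAMB2 alone passed. LAMB2 (ENSG00000172037.14, chromosome 3, 49121114 to 49133118, minus strand) lay at 77.6 and 73.0 CPM in p53WT and at 92.2 and 84.8 CPM in CASM34. Its log2 fold change of 0.24 (SE 0.06) was just inside the threshold (edgeR adjusted p = 0.0489), and it lay at 0.10 with the offset. LAMB1, the alternative partner in laminins with LAMA5, lay at 96.0 and 89.7 CPM in p53WT and at 98.1 and 91.3 CPM in CASM34, a log2 fold change of 0.03 (95% interval -0.08 to 0.15). DLD, a gene at up to 154 CPM, overlaps LAMB1 on the other strand. LAMB3, a chain of the epidermal anchoring laminin, had a log2 fold change of 0.06 (95% interval -0.04 to 0.17). The intervals of LAMB1 and LAMB3 exclude the value of LAMB2, but they overlap its 95% interval (0.12 to 0.36). A difference between genes was not tested.

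Among the gamma chains LAMC3 rose, from 42.4 and 38.5 CPM in p53WT to 51.2 and 49.3 CPM in CASM34. LAMC3 (ENSG00000050555.19, chromosome 9, 131009082 to 131094473, plus strand) differed by 0.32 on the log2 scale (± 0.06 SE, adjusted p = 0.0253 by edgeR), and 0.11 with the offset. LAMC1, the gamma chain of most laminins, lay at 133 and 125 CPM in p53WT and at 136 and 133 CPM in CASM34, a log2 fold change of 0.05 (95% interval -0.05 to 0.16), and 0.05 with the offset. LAMC1 completes a trimer with LAMA5 and LAMB2, which passed. With the offset none of these 3 chains passed, and a difference between chains was not tested.

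**Figure D2:**
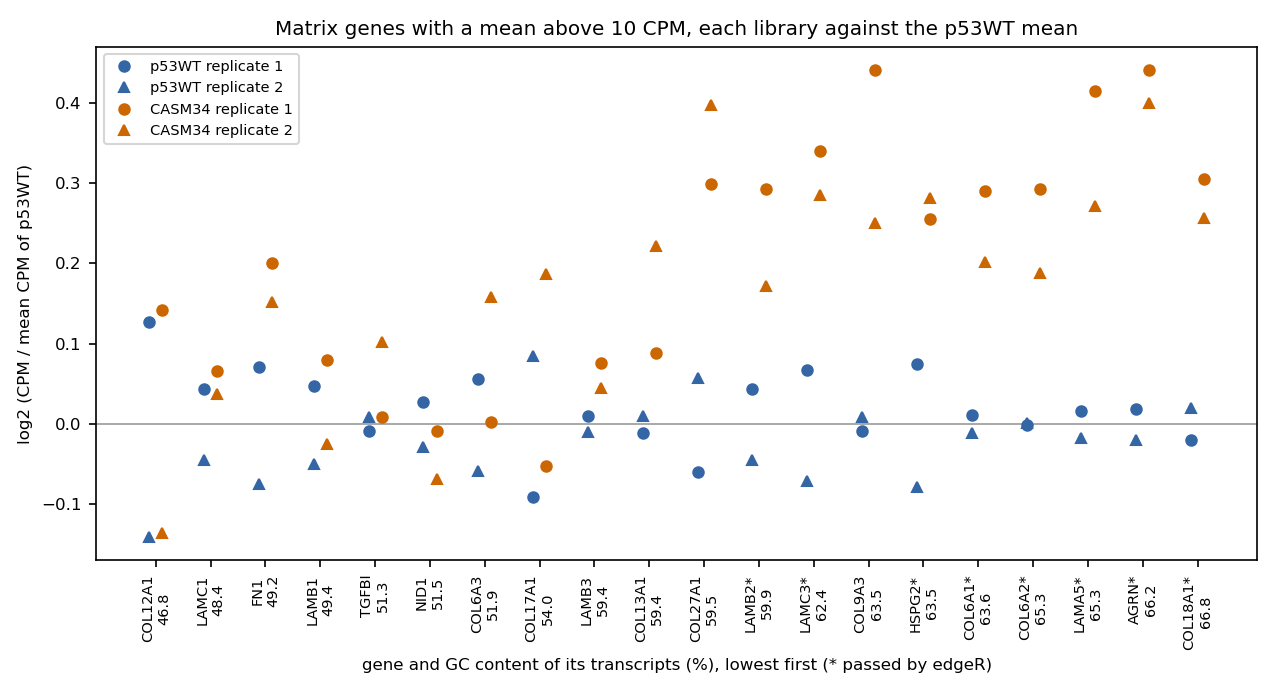
Level of each library relative to the p53WT mean (log2 of the CPM ratio) for 20 of the 21 tested genes with a mean above 10 CPM, ordered by the GC content of their transcripts, with blue for p53WT, orange for CASM34, circles for replicate 1 and triangles for replicate 2. From COL27A1 rightwards (59.5% GC and above) both CASM34 libraries lie above both p53WT libraries in every gene; to the left they do so in some.

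Type VI collagen forms beaded filaments next to basement membranes from the chains of COL6A1, COL6A2 and COL6A3. COL6A1 (ENSG00000142156.16, chromosome 21, 45981737 to 46005050, plus strand) lay at 153 and 151 CPM in p53WT and at 186 and 175 CPM in CASM34, a log2 fold change of 0.25 (± 0.05 SE, adjusted p = 0.0210 by edgeR). COL6A2 (ENSG00000142173.16, chromosome 21, 46098097 to 46132849, plus strand) lay at 169 and 170 CPM in p53WT and at 208 and 193 CPM in CASM34, a log2 fold change of 0.24 (± 0.05 SE, adjusted p = 0.0249 by edgeR). These neighbouring genes moved by nearly the same amount, and with the GC and length offset they lay at 0.02 and -0.02. COL6A3 (chromosome 2, 237324003 to 237414375, minus strand) lay between 13.9 and 16.1 CPM in the 4 libraries, with overlapping groups and a log2 fold change of 0.08 (95% interval -0.14 to 0.30). In TPM both CASM34 libraries of COL6A3 (3.14 and 2.93) were below both p53WT libraries (3.17 and 3.26). Its mean TPM was far below 69.8 TPM for COL6A1 and 73.8 TPM for COL6A2.

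COL18A1, whose protein is a basement membrane collagen and the source of the fragment endostatin, lies on the same arm of chromosome 21 (ENSG00000182871.16, 45405137 to 45513720, plus strand). It lay at 201 and 207 CPM in p53WT and at 252 and 244 CPM in CASM34, with groups that did not overlap. The log2 fold change was 0.28 (± 0.05 SE, 95% interval 0.18 to 0.38, adjusted p = 0.00969 by edgeR), and -0.02 with the GC and length offset. Counts were fractional in 4 libraries, and SLC19A1, a folate carrier gene at up to 55.8 CPM, overlaps it on the other strand. COL15A1, the other member of this collagen class, had 9 and 16 counts in p53WT and 22 and 15 in CASM34 and did not pass (edgeR adjusted p = 0.507).

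Type IV collagen, the scaffold of basement membranes, was almost absent from the RNA of these cells. COL4A1 had 5 and 0 counts in p53WT and 12 and 9 in CASM34, and COL4A2 had 10 and 10 in p53WT and 9 and 10 in CASM34. At this depth neither passed (edgeR adjusted p = 0.255 and 0.989), and the 95% interval of COL4A2 ran from 0.434-fold to 2.38-fold. These genes lie head to head on chromosome 13, and the sequence that both promoters share is shown for that reason. The line gives the RefSeq promoter window of COL4A2 (250 bases before to 50 after its start, GRCh38.p14, chr13:110307034-110307333, plus strand), with capitals for the 226 bases that also belong to the window of COL4A1 on the other strand (chr13:110307108-110307333).
COL4A2: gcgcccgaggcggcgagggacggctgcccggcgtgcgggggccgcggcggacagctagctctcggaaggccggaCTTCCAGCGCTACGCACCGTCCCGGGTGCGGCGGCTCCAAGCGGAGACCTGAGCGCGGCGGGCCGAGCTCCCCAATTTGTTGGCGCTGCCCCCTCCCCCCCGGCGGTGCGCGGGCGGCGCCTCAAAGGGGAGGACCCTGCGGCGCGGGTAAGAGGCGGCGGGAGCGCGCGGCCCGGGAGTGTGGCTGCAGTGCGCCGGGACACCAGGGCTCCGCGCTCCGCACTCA
COL4A5, a chain found in kidney and epithelial basement membranes, was the most abundant type IV gene, with 2.95 and 3.10 CPM in p53WT and 4.64 and 3.89 CPM in CASM34. Its groups did not overlap, and its log2 fold change of 0.51 (95% interval 0.09 to 0.93) did not pass (edgeR adjusted p = 0.200). With the GC and length offset it lay at 0.52, so unlike the 8 genes that rose its value was nearly the same in both fits. This was not particular to COL4A5 (47.1% GC). Other members under 50% GC also moved little, such as LAMA3 (0.41 and 0.40) and LAMA2 (0.23 and 0.25).

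The fibrillar collagens, the main tensile fibres of connective tissue, were low, and none of the 5 tested of 11 passed. COL1A1, the major collagen of bone and skin, had 46 and 50 counts in p53WT and 58 and 51 in CASM34, whereas its partner COL1A2 had at most 3 counts in any library. COL3A1 had at most 1. COL27A1, a cartilage collagen with the highest level of this class, lay at 18.6 and 20.2 CPM in p53WT and at 23.9 and 25.5 CPM in CASM34. Its log2 fold change of 0.34 (SE 0.09) lay just outside the threshold (edgeR adjusted p = 0.0617), was past it with a minimum mean of 1 CPM, with no filter, with the replicate number as a block and without CASM34 replicate 1, and was 0.19 with the GC and length offset. COL5A1, which nucleates collagen fibrils, had a log2 fold change of 0.03 (95% interval -0.36 to 0.42). COL11A2, a minor collagen of cartilage fibrils, had 26 and 20 counts in p53WT and 29 and 44 in CASM34, and a log2 fold change of 0.79 that did not pass (adjusted p = 0.358 by edgeR). It was 0.15 without CASM34 replicate 2 and 1.30 without CASM34 replicate 1. The lowest log2 fold change of the tested genes was that of COL5A2, -0.80 (95% interval -1.84 to 0.24), from 21 and 24 counts in p53WT and 20 and 5 in CASM34. CASM34 replicate 2, the shallowest library, holds the 5, and without it the value was -0.34.

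The remaining collagens gave no calls among 7 tested genes. COL9A3, a cartilage collagen that decorates fibrils, lay at 9.02 and 9.13 CPM in p53WT and at 12.3 and 10.8 CPM in CASM34, a log2 fold change of 0.35 (± 0.12 SE, adjusted p = 0.150 by edgeR). It passed only without CASM34 replicate 2. TCFL5, a gene at up to 27.0 CPM, overlaps COL9A3 on the other strand. COL12A1 and COL16A1, of the same fibril-associated class as COL9A3, had log2 fold changes of 0.03 and 0.04. Their 95% intervals ran from -0.24 to 0.29 and from -0.49 to 0.57. The transmembrane collagens COL13A1 and COL17A1, the latter a hemidesmosome protein, had log2 fold changes of 0.15 (95% interval -0.02 to 0.32) and 0.06 (95% interval -0.19 to 0.31). COL26A1, a little studied collagen, had 10 to 25 counts per library.

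COL7A1, which forms the fibrils that anchor basement membranes to the tissue beneath, showed how the unit can turn a direction. In CPM it lay at 3.59 and 2.59 in p53WT and at 4.04 and 3.56 in CASM34, a log2 fold change of 0.32 with overlapping groups (edgeR adjusted p = 0.494). In TPM it lay at 2.71 and 2.59 in p53WT and at 1.53 and 1.51 in CASM34, groups that do not overlap in the other direction. The deposited effective length, which RSEM computes from its estimate of the transcripts in use, was 1589 and 1181 bases in p53WT and 3113 and 2792 bases in CASM34. These lengths rest on 65 to 108 counts per library. In limma on log2(TPM + 1) its value was -0.53 (adjusted p = 0.338). For LAMA3 and COL13A1 both CASM34 libraries were higher in CPM and lower in TPM. Of the 38 tested genes, 16 had groups apart in TPM with CASM34 higher and 6 with CASM34 lower. The share of all genes with groups apart in TPM was not computed. Of the 8 genes that rose, called in these same libraries, 7 were apart in TPM with CASM34 higher. COL6A1 overlapped, with 70.8 and 59.1 TPM in p53WT and 79.4 and 70.0 TPM in CASM34.

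Fibronectin, which links collagens to integrins, had the largest value of the 4 genes under 50% GC with a mean above 10 CPM. FN1 (ENSG00000115414.21, chromosome 2, 215360440 to 215436172, minus strand, 49.2% GC) lay at 78.3 and 70.8 CPM in p53WT and at 85.7 and 82.9 CPM in CASM34, with groups that did not overlap. In TPM they did, with 13.9 and 19.7 in p53WT and 19.3 and 22.3 in CASM34. Its log2 fold change of 0.18 (SE 0.06, 95% interval 0.06 to 0.30) did not pass (edgeR adjusted p = 0.124). With the GC and length offset the value was 0.17 (edgeR adjusted p = 0.145), larger than that of any of the 8 genes that rose. FN1 passed without CASM34 replicate 2 (edgeR adjusted p = 0.0485), with the replicate number as a block (edgeR adjusted p = 0.0267) and with the block and the offset together (edgeR adjusted p = 0.0475). Without p53WT replicate 2 it lay at 0.11. TGFBI, an integrin-binding matrix protein induced by TGF-beta, lay at 107 and 108 CPM in p53WT and at 108 and 115 CPM in CASM34, a log2 fold change of 0.05 (95% interval -0.05 to 0.16). SPARC, a collagen-binding glycoprotein, had 38 to 62 counts per library and a log2 fold change of -0.36 (95% interval -0.96 to 0.25).

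Across the 38 tested genes 34 had a fitted log2 fold change above 0 and 4 had one below 0, with a median of 0.23. Over all tested genes 49.8% were above 0 and the median was -0.001. Both CASM34 libraries lay above both p53WT libraries for 24 of the 38 genes and below both for 1, COL5A2, against 24.5% and 23.4% of all tested genes. With the GC and length offset 27 of the 38 were above 0 with a median of 0.05, and the median of all tested genes was -0.02.

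Calls followed GC content and abundance within the set. Of 13 tested genes at 60% GC and over 7 rose, of 15 between 50% and 60% 1 rose, and of 10 under 50% 0 rose. Over all tested genes the shares that rose in these ranges were 7.96%, 0.870% and 0.196%. Of the 8 genes at 60% GC and over with a mean above 10 CPM, COL9A3 alone did not pass, where 12.8% of all such genes rose. Those 8 had a median log2 fold change of 0.30, against 0.15 for all 1465 genes in that range, and with the offset 0.05 against -0.06. Across the 38 tested members the Spearman correlation of GC content with the log2 fold change was 0.42. Over the 15695 tested genes with a GC content it was 0.47. Across the 21 members above 10 CPM it was 0.82, and it was not computed for all genes with that limit. Members are not independent replicates and share the same libraries. The offset removes such a trend by its construction. The ranges of GC content and the limit of 10 CPM were chosen after the values were seen.

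**Figure D3:**
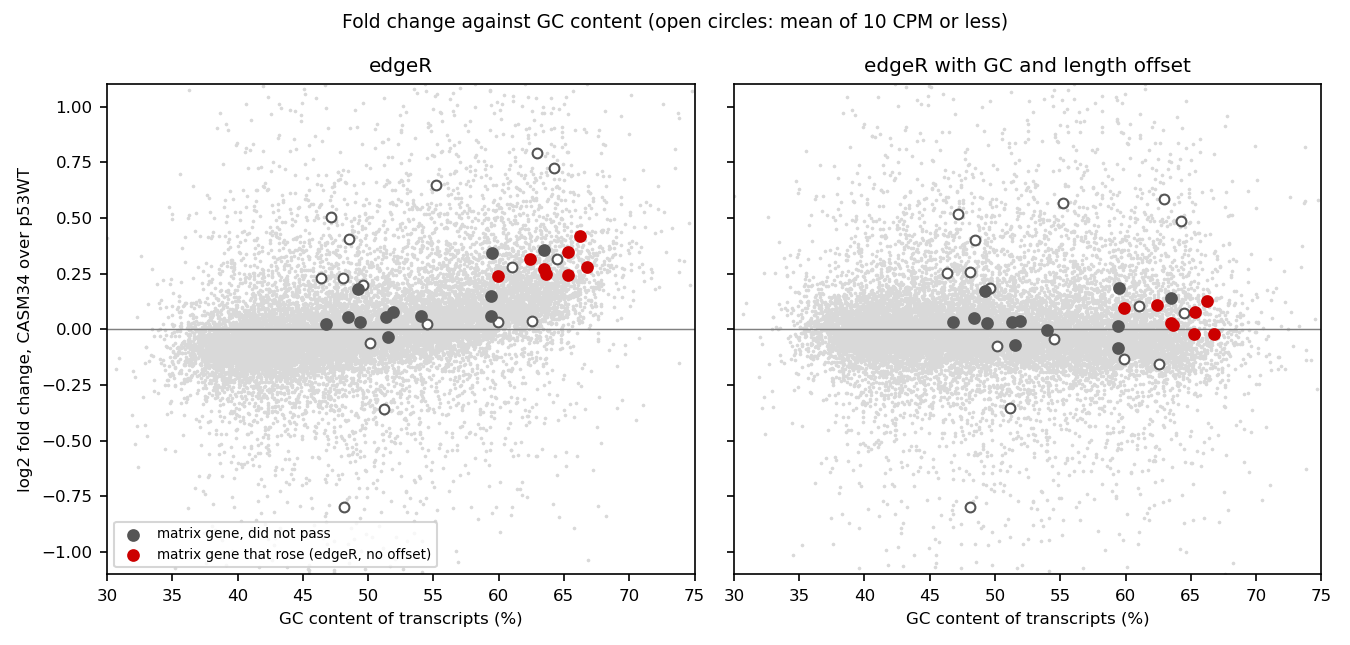
Log2 fold change of CASM34 over p53WT against the GC content of transcripts, by edgeR (left) and by edgeR with the GC and length offset (right), for all tested genes (grey) and the matrix genes, with open circles for means of 10 CPM or less. COL4A1 (2.08 and 2.07) lies outside the axis; the 8 genes that rose (red) lie between 0.24 and 0.42 on the left and between -0.02 and 0.13 on the right.

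Promoters were compared because some members moved together. RefSeq promoter windows of 300 bases were present for 47 of the 63 genes, among them 5 of the 8 that rose. The windows of COL6A2 (chr21:46097862-46098161, plus strand), LAMA5 (chr20:62367263-62367562, minus strand), LAMB2 (chr3:49133001-49133300, minus strand) and LAMC1 (chr1:183023170-183023469, plus strand) are given as RefSeq on GRCh38.p14 has them, the last because LAMC1 did not pass. Capitals mark the letters GGGCGG on either strand, the GC box bound by Sp-family factors.
COL6A2: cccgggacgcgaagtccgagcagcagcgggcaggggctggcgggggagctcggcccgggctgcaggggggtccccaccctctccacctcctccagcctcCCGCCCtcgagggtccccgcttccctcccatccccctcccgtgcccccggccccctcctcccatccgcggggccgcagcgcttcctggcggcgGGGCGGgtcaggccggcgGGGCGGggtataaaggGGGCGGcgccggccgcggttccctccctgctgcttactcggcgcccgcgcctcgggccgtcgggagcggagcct
LAMA5: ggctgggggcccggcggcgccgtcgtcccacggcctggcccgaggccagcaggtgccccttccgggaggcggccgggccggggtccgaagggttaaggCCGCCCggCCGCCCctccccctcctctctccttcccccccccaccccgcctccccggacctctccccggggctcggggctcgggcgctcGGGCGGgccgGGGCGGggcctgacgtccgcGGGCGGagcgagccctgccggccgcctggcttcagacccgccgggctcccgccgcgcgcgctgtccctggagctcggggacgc
LAMB2: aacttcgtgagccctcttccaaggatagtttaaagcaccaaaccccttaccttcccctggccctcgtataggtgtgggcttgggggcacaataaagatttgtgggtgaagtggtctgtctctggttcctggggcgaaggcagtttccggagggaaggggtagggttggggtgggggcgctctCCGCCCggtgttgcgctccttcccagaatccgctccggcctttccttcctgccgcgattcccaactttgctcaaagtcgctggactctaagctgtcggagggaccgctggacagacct
LAMC1: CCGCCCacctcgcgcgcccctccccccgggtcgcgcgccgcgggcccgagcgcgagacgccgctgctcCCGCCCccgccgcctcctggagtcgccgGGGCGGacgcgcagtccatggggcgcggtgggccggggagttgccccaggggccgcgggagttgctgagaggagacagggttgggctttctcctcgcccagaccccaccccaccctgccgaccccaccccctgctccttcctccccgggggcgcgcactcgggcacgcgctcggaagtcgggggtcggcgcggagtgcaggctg
These windows hold 4, 5, 1 and 3 GC boxes and 79.3%, 82.7%, 58.7% and 79.0% G or C. The promoter of LAMC1 was thus about as rich in G and C as that of COL6A2. Its transcripts held 48.4% G or C against 65.3% for COL6A2. The 6 windows of genes that rose held 58.7% (LAMB2) to 86.7% G or C, with a median of 81.0%. The 31 windows of tested genes that did not pass held 40.7% to 79.0% (LAMC1), with a median of 64.0%. LAMB2 and LAMC1 are thus the extremes of their groups. GC boxes were present in all 6 windows of the 5 genes that rose, in 21 of 31 windows of tested genes that did not pass, and in 45.0% of all windows. The median over all windows was 58.7% G or C, so these shares compare windows of unlike GC content. AGRN, COL6A1 and LAMC3, which also rose, had no window. The p53 consensus decamer, searched on both strands at once because it is its own reverse complement and without mismatches, matched 0 of those 6 windows, 1 of the 31, that of COL17A1, and 6.63% of all windows. The decamer is a p53 half-site, and only these windows of 300 bases were searched. With matches in 6.63% of all windows, 0 of 6 cannot set the genes that rose apart from other genes. A match describes letters only and shows no binding.

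Other genes act in modifying, folding, exporting, trimming and crosslinking collagens. Of 39 such genes on a list 37 were tested, 2 rose and 0 fell, where 1.61% of all tested genes rose and 0.345% fell. The list had a median log2 fold change of 0.08. LOXL1, a crosslinking amine oxidase gene, lay at 29.9 and 30.6 CPM in p53WT and at 37.0 and 38.1 CPM in CASM34, a log2 fold change of 0.31 (edgeR adjusted p = 0.0315). GPC1, a heparan sulfate proteoglycan gene, lay at 170 and 184 CPM in p53WT and at 208 and 205 CPM in CASM34, a log2 fold change of 0.22 (edgeR adjusted p = 0.0413). With the GC and length offset they lay at 0.09 and -0.04, and neither passed. The most abundant genes of the list, PPIB, P4HB and TGM2, had log2 fold changes of 0.02, 0.10 and 0.11 and did not pass. P4HA2, a prolyl hydroxylase gene known as a p53 target and chosen here after its values were seen, lay at 41.0 and 46.5 CPM in p53WT and at 47.4 and 47.0 CPM in CASM34, a log2 fold change of 0.11 (95% interval -0.04 to 0.25).

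Among 30 receptor genes for these ligands 26 were tested, 1 rose and 0 fell, against the same 1.61% and 0.345% of all tested genes. The median log2 fold change was 0.05. DDR1, a receptor tyrosine kinase that binds collagen, lay at 86.6 and 92.4 CPM in p53WT and at 112 and 111 CPM in CASM34, a log2 fold change of 0.31 (± 0.05 SE, adjusted p = 0.00893 by edgeR). Its transcripts held 61.8% G or C, and with the offset it lay at 0.12 (edgeR adjusted p = 0.299). The most abundant genes of the list were RPSA, the non-integrin laminin receptor and ribosomal protein, CD44, a hyaluronan receptor, and ITGB1, the common integrin beta chain. They had log2 fold changes of -0.10, -0.07 and -0.02 and did not pass. Counts of RPSA and ITGB1 were fractional in 4 libraries.

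The 8 rises differed in how far they depended on each library. AGRN and LAMA5 passed in all 4 fits that left out 1 library, with log2 fold changes from 0.40 to 0.44 and from 0.27 to 0.41. COL18A1, HSPG2 and LAMC3 passed in 3 of the 4, COL6A1 in 2, and COL6A2 and LAMB2 in 1. COL18A1 did not pass without p53WT replicate 1 (edgeR adjusted p = 0.0878), and HSPG2 and LAMC3 did not pass without p53WT replicate 2 (edgeR adjusted p = 0.166 and 0.168). Each of these fits had only 1 library in 1 group. They were run without the GC and length offset, with which none of the 8 passed. In all of these fits the 8 genes lay above 0, the lowest value being 0.17 for LAMB2 without CASM34 replicate 1. No member fell in any of them.

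**Figure D4:**
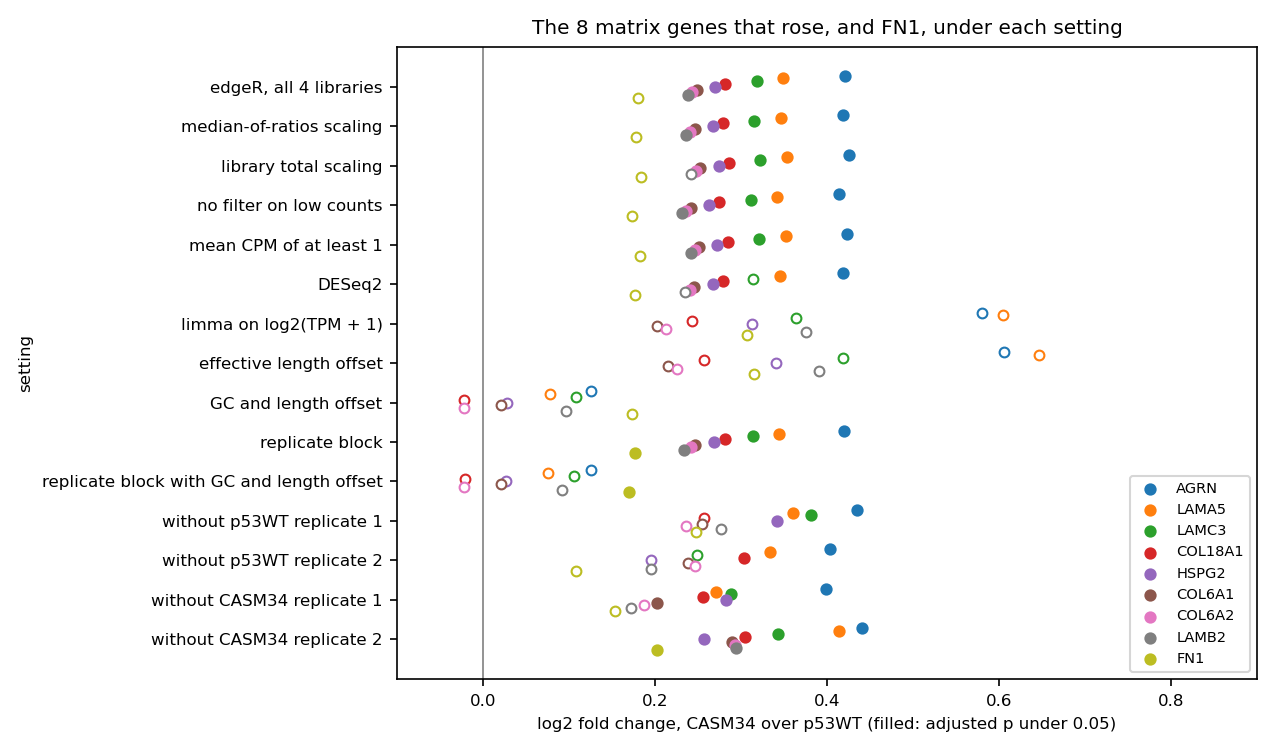
Log2 fold change of CASM34 over p53WT for the 8 genes that rose and FN1 under each setting, filled where the adjusted p was under 0.05. The 8 genes lie at or above 0.17 in all settings without the GC and length offset, and at or below 0.13 with it, while FN1 stays at 0.17 with the offset.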

How the data were processed

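Poly(A) RNA of 4 libraries was sequenced. The submitters' processing notes name GRCh38 and the tools STAR, RSEM and Trim Galore. No source used here gives their versions, the annotation release or the strand setting. Per the file headers, the authors deposited RSEM expected counts, TPM and effective lengths (bases) for 61852 genes. Counts were fractional (tolerance 0.001) for 8.63% to 9.26% of them in a library. FPKM was not used.

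Expected counts were rounded. The main test was edgeR 4.0.16's quasi-likelihood F test, run in R 4.3.3 (TMM, filterByExpr with a minimum count of 10, Benjamini-Hochberg over the 15965 tested genes, threshold 0.05). CPM uses the TMM factors, 0.993 to 1.01. Standard errors came from the log2 fold change and F (its size over the root of F), and 95% intervals use the t distribution with the total degrees of freedom. Symbols, transcript GC content (pooled over a gene's transcripts) and coordinates (1-based) were matched by gene ID, the last 2 from GENCODE 29. The GC and length offset fitted each library's deviation from a gene's mean log2 CPM with natural splines (5 degrees of freedom each); 15695 genes had both values.

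The members, lists, tests, alternatives and the rule for named genes were chosen with earlier results of these data known. The rule named every tested member, in full for each one past the threshold and for the 3 with the highest mean TPM in each of 12 role classes, and in the processing and receptor lists those past the threshold (at most 4) and the 3 highest; other genes named were chosen after their values were seen. A laminin chain and a sequence window are not reported here, and counts over the set include that chain. Alternatives were median-of-ratios and library-total scaling, no filter, a mean of at least 1 CPM, DESeq2 1.42.0, limma 3.58.1 on the authors' TPM as log2(TPM + 1), an effective length offset, the GC and length offset, a replicate block alone and with that offset, and each library left out. The scripts were tested on simulated data. The libraries of a group differed by more than counting error (chi-square per degree of freedom 3.86 and 3.92), so none was counted as a duplicate.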

Additional observations from a re-analysis of the deposited data

How the results depend on the processing

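The 8 members that rose became 0 in limma on log2(TPM + 1), with the effective length offset and with the GC and length offset, and 1 (FN1) with the replicate block and the GC and length offset together. Leaving out 1 library gave 3 to 10. An unadjusted p under 0.05 was reached by 8 members in limma on log2(TPM + 1) and by 12 with the effective length offset. Of all 15965 tested genes, 1820 and 1882 reached it. The 8 members that rose in the main test lay above 0 in both settings, from 0.20 to 0.60 and from 0.22 to 0.65. Both settings use the same libraries in which these 8 were called. No member fell in any setting by edgeR, DESeq2 or limma. Library-total scaling gave 7 and DESeq2 6; median-of-ratios scaling gave the same 8, and no filter and a minimum mean of 1 CPM gave these 8 and COL27A1. The processing genes that changed went from 2 to 1 in DESeq2, 0 in limma, 0 with the effective length offset, 0 with the GC and length offset, 5 with the replicate block and 1 with both, and leaving out 1 library gave 0 to 4. The receptor genes went from 1 to 2 without a filter, 0 in limma, 0 with either offset, 2 with the block and 0 with the block and the GC and length offset, and leaving out 1 library gave 0 to 2. All genes that changed went from 312 to 777 without a filter, 0 in limma, 5 with the effective length offset, 45 with the GC and length offset and 1159 with the replicate block, and leaving out 1 library gave 109 to 919. The cause was not tested. For the block, the titles number the libraries 1 and 2, but no label says that a number marks a shared culture or day, and the deviations of same-numbered libraries had a correlation of 0.03. With the block 10 members rose, the 8 with COL27A1 and FN1.

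Named genes whose log2 fold change turned its sign did not pass there. In limma on log2(TPM + 1), these were CD44 (0.045), COL13A1 (-0.17), COL17A1 (-0.26), COL6A3 (-0.063), COL7A1 (-0.53), LAMA3 (-0.16), LAMB1 (-0.042), LAMC1 (-0.23), NID2 (0.032) and TGFBI (-0.0039). With the effective length offset, these were CD44 (0.056), COL13A1 (-0.17), COL17A1 (-0.32), COL6A3 (-0.073), COL7A1 (-0.79), LAMA3 (-0.36), LAMB1 (-0.035), LAMC1 (-0.22) and NID2 (0.045). With the GC and length offset, these were COL16A1 (-0.16), COL17A1 (-0.0012), COL18A1 (-0.022), COL4A2 (-0.042), COL5A1 (-0.13), COL6A2 (-0.022), GPC1 (-0.039), ITGB1 (0.029), LAMB3 (-0.084), P4HB (-0.010) and PPIB (-0.021). With the replicate block and that offset, these were COL16A1 (-0.15), COL18A1 (-0.021), COL4A2 (-0.030), COL5A1 (-0.12), COL6A2 (-0.022), GPC1 (-0.035), ITGB1 (0.029), LAMB3 (-0.083), P4HB (-0.0097) and PPIB (-0.019). With 1 library left out, COL12A1 from -0.13 to 0.15, COL16A1 from -0.11 to 0.19, COL17A1 from -0.056 to 0.18, COL4A2 from -0.32 to 0.37, COL5A1 from -0.093 to 0.17, LAMB1 from -0.024 to 0.080, NID2 from -0.18 to 0.065 and PPIB from -0.048 to 0.098 crossed 0. Depth limits the low genes most: SPARC, COL5A2 and the type IV genes rest on at most 124 counts per library.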
